A study of Homo sapiens with 12 samples.

Results

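C4-2 cells given the KDM1A inhibitor namoline together with the synthetic androgen R1881 were compared with C4-2 cells given R1881 alone, across all genes. C4-2 is a castration-resistant line derived from LNCaP, a human prostate cancer line that depends on androgen. The comparison rests on 4 of the 12 libraries of the series, chosen by their titles: 2 with R1881 at 1 nM and 2 with R1881 at 1 nM plus namoline at 50 µM, both for 72 h. Cells were kept in phenol-red-free medium with hormone-depleted serum, so R1881 was the added androgen in both groups. By the study's methods, cells given R1881 alone also received the DMSO vehicle. C4-2 cells given R1881 with TCE-5002, an inhibitor of another histone demethylase, KDM7A, (2 libraries), served as a second reference. The study describes TCE-5002 as selective for KDM7A but also acting on the demethylases PHF8 and KDM2A. The series text and the study's methods differ on the TCE-5002 dose, so differences from that group are read without a known dose. Another C4-2 group received both inhibitors. It enters here through the shared estimate of spread, a principal component analysis, 1 of the plots and a few values set beside those of namoline.

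KDM1A, also called LSD1, is a flavin-dependent amine oxidase that removes methyl groups from mono- and dimethylated lysines of histone tails. It sits in complexes with CoREST proteins and histone deacetylases, where it acts mainly as a repressor, and in prostate cells it also works with the nuclear receptor that binds androgen. Namoline is a small molecule described as a reversible inhibitor of the enzyme. It acts on the protein, so the level of KDM1A mRNA does not measure how far the enzyme was inhibited.

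The 4 libraries held 20295282 and 14791602 counts (R1881) and 17973501 and 18108796 counts (namoline). Levels are given as CPM, the count scaled to a common effective library size. Where a pair of values is set against another, the R1881 libraries come first and the namoline libraries second. Replicates lay close together: of 9808 genes at 10 CPM or more, 1 differed 2-fold or more between the R1881 libraries, and 4 of 9801 did so between the namoline libraries. The summed level of 13 luminal prostate markers was 4931 and 4980 CPM with R1881 and 4973 and 5003 CPM with namoline. Among basal and leukocyte markers the sums stayed at or below 1.33 CPM in each of the 4 libraries, and CD3D, CD3E and CD2 had no count. Fibroblast markers summed to 42.1 to 52.8 CPM, nearly all of it COL1A1, with COL3A1 and LUM at 0. Endothelial markers summed to 5.07 to 8.62 CPM, nearly all of it VWF. The labelled cell type is therefore borne out by its marker sum in both groups. That sum hides moves of single luminal markers, with SPDEF higher (log2 fold change 1.10) and CDH1 lower (-0.68) with namoline. In a bulk sample, a change in the share of cells in one state and a change in RNA per cell cannot be told apart.

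Namoline moved a broad set of genes. Of 17702 genes tested, 2134 (12.1%) differed at an adjusted p under 0.05 (edgeR quasi-likelihood F test) with at least a 2-fold change, the threshold used below for genes that rose or fell. Higher genes numbered 916 (5.17%) and lower genes 1218 (6.88%), and these shares are the background against which each gene group below is read. By adjusted p alone, 6193 genes (35%) differed, 3316 higher (18.7%) and 2877 lower (16.3%), the background for counts by adjusted p alone. The centre of the distribution did not shift: the median log2 fold change was 0.00, with the 5th and 95th percentiles at -1.42 and 1.13.

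The larger changes leaned downwards, whereas among well expressed genes more rose, by a margin that depended on how level was limited. At 4-fold or more, 170 genes rose and 363 fell. Among genes with a mean of at least 10 CPM in the higher group, 542 rose and 354 fell, and 220 of the 2134 genes stayed under 1 CPM in both groups. That limit reads each gene in the group where it was high. With a mean of at least 10 CPM over all C4-2 libraries instead, 52.8% of 702 calls were higher. Fold changes rose weakly with GC content (Spearman's rho 0.22 over 14475 genes, and genes are no independent replicates). The difference between the replicates of a group also followed GC content, with rho -0.411 for R1881, -0.362 for namoline and -0.676 for TCE-5002. The median GC content was 53.4% for higher genes, 47.7% for lower genes and 48.5% for all. With GC content fitted as an offset, 36.8% of calls were higher in place of 42.9%.

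**Figure D1:**
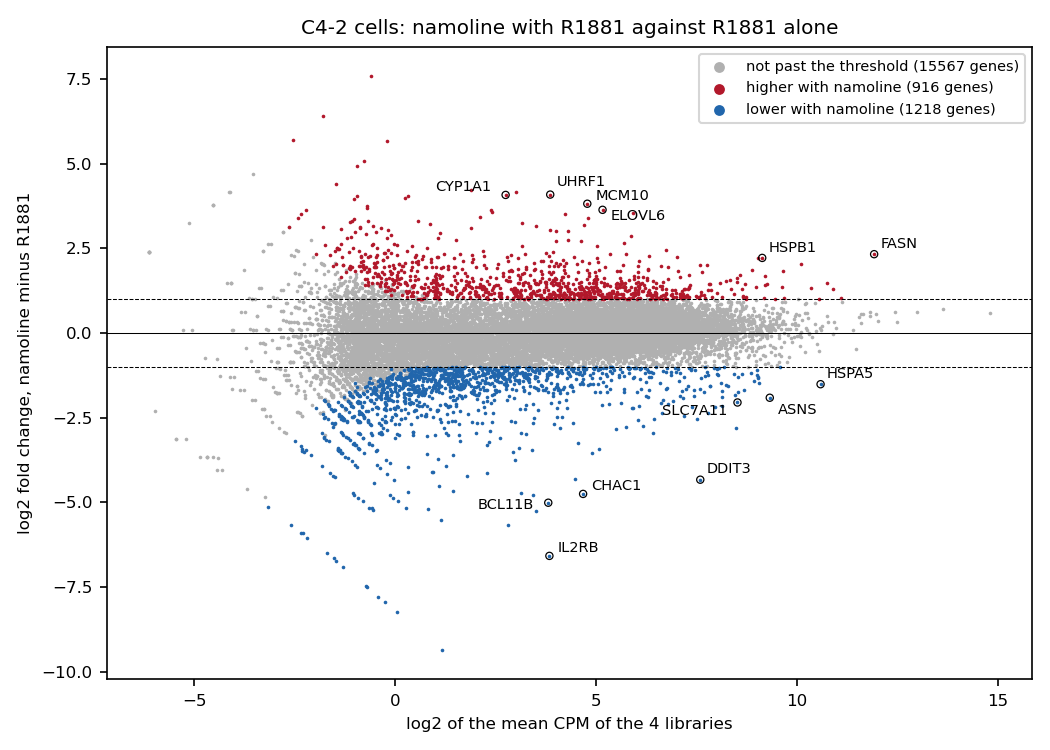
Log2 fold change of namoline with R1881 against R1881 alone (vertical axis) by the log2 of the mean CPM of the 4 libraries (horizontal axis), 1 point per gene. The 916 higher and 1218 lower genes are coloured over 15567 genes not past the threshold, and lower genes reach larger changes than higher ones.

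The 10 protein-coding genes that rose most are given first, ranked among genes at 10 CPM or more in the higher group whose groups did not overlap. DIO3, a deiodinase that inactivates thyroid hormone, stood at 0.507 and 1.27 CPM with R1881 and 24.8 and 5.44 CPM with namoline (log2 fold change 4.17, SE 0.61, adjusted p = 0.00013), so the namoline replicates disagreed more than 4-fold in level, and without the first of them the log2 fold change was 2.68. UHRF1 (chr19:4903080-4962154), which brings the maintenance DNA methyltransferase to newly copied DNA, rose from 1.61 and 1.58 CPM to 23.6 and 31.3 CPM (log2 fold change 4.09, SE 0.23, adjusted p = 2.54e-08). CYP1A1, a xenobiotic-metabolising cytochrome and the classical target of the aryl hydrocarbon receptor, rose from 0.784 and 0.696 to 11.5 and 13.8 CPM (log2 fold change 4.08, SE 0.25, adjusted p = 5.54e-08). All 3 genes were near or under 2 CPM in both R1881 libraries, so their fold changes start from low levels.

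MCM10, a factor that loads polymerase at replication origins, rose from 4.33 and 2.79 to 46 and 56.9 CPM (log2 fold change 3.82). ELOVL6, which lengthens saturated fatty acids, rose from 5.49 and 5.06 to 60.7 and 71.8 CPM (3.64). FAM111B, a protease, went from 10.1 and 8.74 to 110 and 113 CPM (3.56). The remaining 4 of the 10 were ZNF367 (3.52), the checkpoint mediator CLSPN (3.39), the cell cycle transcription factor E2F2 (3.25) and the peptide ligand APLN (3.19).

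The 10 protein-coding genes with the largest falls were chosen by the same limits, so genes at low levels with larger fold changes stand outside both sets. IL2RB (chr22:37125838-37175054), a subunit of the interleukin-2 receptor, went from 27.1 and 29.6 CPM to 0.288 and 0.289 CPM (log2 fold change -6.58, SE 0.41, adjusted p = 5.54e-08). BCL11B, a zinc finger repressor, fell from 27.1 and 27.3 to 1.04 and 0.637 CPM (log2 fold change -5.01, SE 0.24, adjusted p = 8.10e-09), and FYN, a kinase of the SRC family, fell from 20.8 and 20.6 to 1.04 and 0.463 CPM (-4.78). IL2RB, BCL11B and FYN are best known from lymphocytes, yet the T cell markers CD3D, CD3E and CD2 had no count in any library, and leukocyte markers summed to 0.876 and 0.823 CPM with R1881.

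KLHDC7B fell from 14 and 13.4 to 0.461 and 0.0579 CPM (-5.68), and CMKLR2, a chemerin receptor, from 22 and 22.3 to 0.922 and 0.231 CPM (-5.25). FIBIN (-4.72), LAMP3 (-4.31) and STYXL2 (-3.53) followed, the last from 56.1 and 53.4 to 6.28 and 3.18 CPM. The other two, CHAC1 and DDIT3, belong to the integrated stress response and are described with it. Most namoline values of these genes were under 2 CPM and rest on few counts.

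Gene groups were described with 41 lists of known members. The groups that moved furthest were the integrated stress response downwards and replication origin factors upwards, with lipid synthesis, antioxidant genes and homologous recombination also up. Lists without a member past the threshold were the KDM1A complex, the other histone demethylases, the mitochondrial genome, cytosolic ribosomal proteins and splicing factors.

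**Figure D2:**
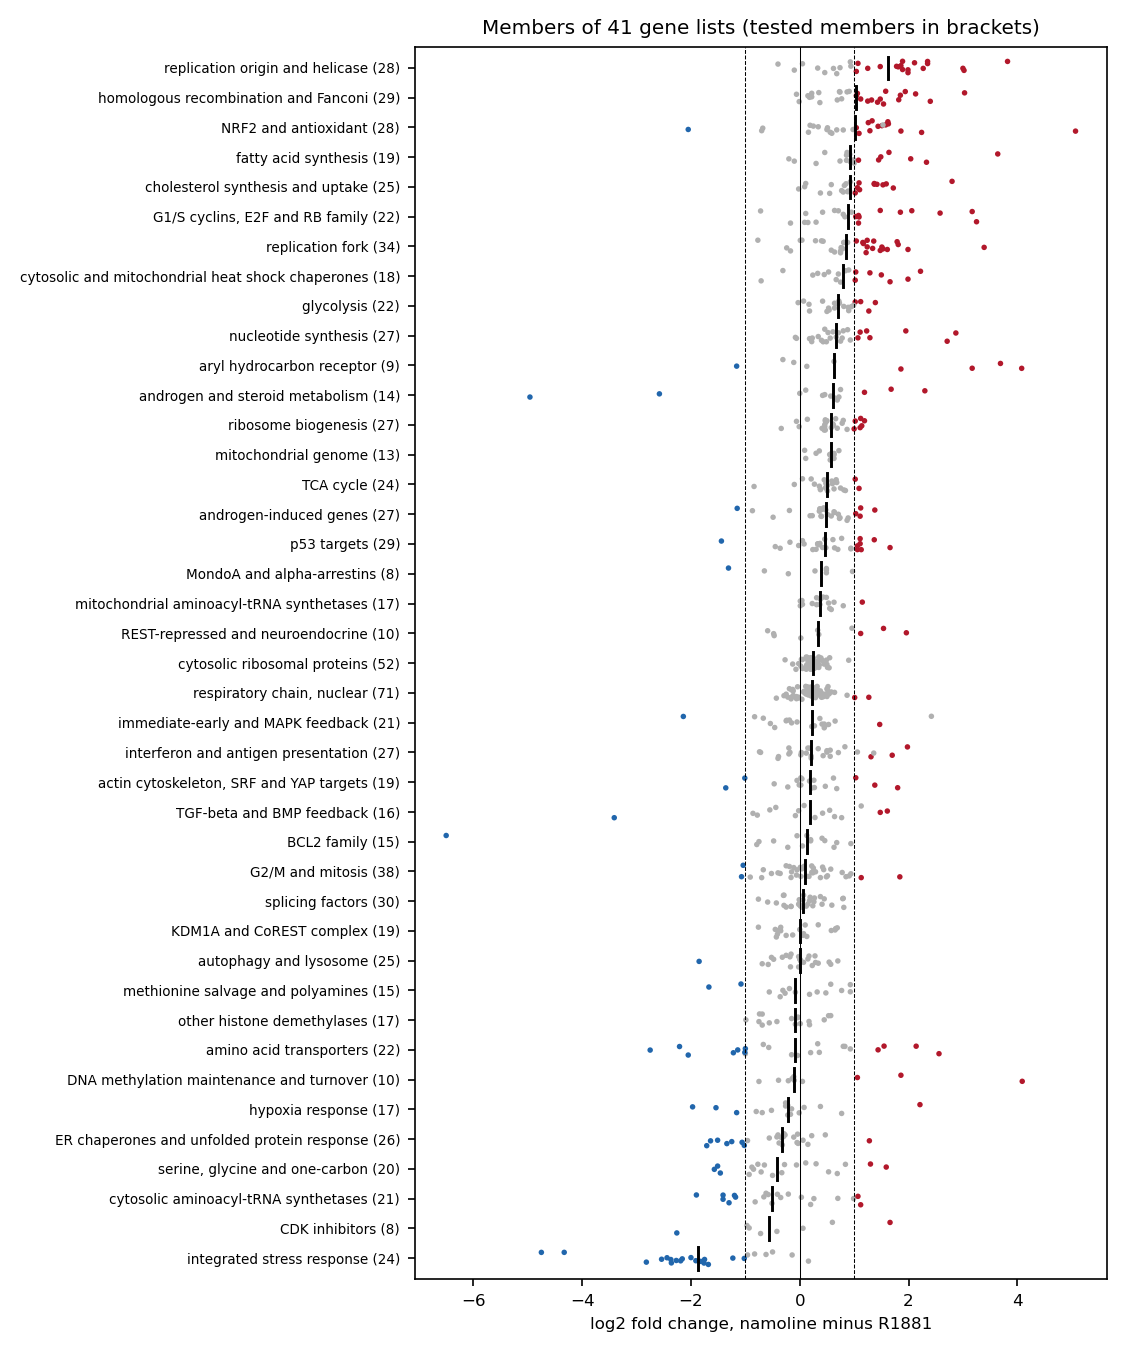
Log2 fold change of namoline with R1881 against R1881 alone for every tested member of the 41 gene lists, 1 point per gene and 1 row per list, with the number of tested members in brackets, a black bar at the median, dashed lines at 2-fold, and genes past the threshold in red (higher) or blue (lower). By median, the integrated stress response lies furthest to the left (median -1.86) and the replication origin list furthest to the right (median 1.63).

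Most replication licensing genes rose. Before S phase, origins are marked by the origin recognition complex, CDC6 and CDT1, which load the MCM helicase, and CDC45 and GINS then switch it on. Of 28 genes of this list, 18 rose and 0 fell, against a background of 5.17% higher, with a median log2 fold change of 1.63. ORC1, the largest subunit of the recognition complex, was at 4.01 and 2.98 CPM with R1881 and 23.7 and 33.1 CPM with namoline (log2 fold change 3.0, SE 0.28, adjusted p = 1.89e-06). CDC6 was at 20.3 and 14.4 against 77.3 and 101 CPM (log2 fold change 2.35, SE 0.17, adjusted p = 1.85e-07), and CDC45 at 3.87 and 4.81 against 29.9 and 39.9 CPM (log2 fold change 3.02, SE 0.27, adjusted p = 1.43e-06). All 6 subunits of the core helicase rose, by log2 fold changes of 1.89 (MCM2), 1.99 (MCM3), 2.27 (MCM4), 2.35 (MCM5), 1.48 (MCM6) and 1.81 (MCM7). MCM7 was the most abundant of them, at 90.6 and 85.4 CPM with R1881 and 270 and 348 CPM with namoline. Of the activating GINS complex, GINS1 (2.11), GINS2 (1.89) and GINS4 (1.86) rose too.

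Replication fork genes followed, with 16 of 34 higher, 0 lower and a median of 0.85. CLSPN, which relays fork stalling to the checkpoint kinase, had 5.58 and 3.92 CPM with R1881 and 46.8 and 54.1 CPM with namoline (log2 fold change 3.39, SE 0.21, adjusted p = 5.93e-08). PCNA, the sliding clamp, rose from 39 and 40.1 to 147 and 166 CPM (log2 fold change 1.99, SE 0.14, adjusted p = 1.06e-07). POLA2, a subunit of the priming polymerase, rose by 1.81 and FEN1, the flap nuclease, by 1.79. FEN1 overlaps FADS2 and TMEM258 in the annotation, and counting was not stranded, so part of its reads could belong to a neighbour. LIG1, the ligase that joins Okazaki fragments, rose from 7.61 and 8.36 to 21.2 and 24.8 CPM (1.53), and both subunits CHAF1A (1.24) and CHAF1B (1.61) of the histone chaperone at the fork rose too.

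An E2F site is the element through which many replication genes are switched on at the start of S phase. Promoters of 4 genes from these lists are shown. They were picked for the largest changes among members past the threshold that hold a letter match to such a site. Each run covers 250 bases before the RefSeq start (GRCh38.p14), read 5′ to 3′ on the strand of the gene, with the match to TTTCCCGC or its reverse complement GCGGGAAA in capitals. MCM3 is at chr6:52284743-52284992, minus strand, GINS2 at chr16:85688955-85689204, minus strand, PCNA at chr20:5126623-5126872, minus strand and LIG1 at chr19:48170345-48170594, minus strand.
MCM3: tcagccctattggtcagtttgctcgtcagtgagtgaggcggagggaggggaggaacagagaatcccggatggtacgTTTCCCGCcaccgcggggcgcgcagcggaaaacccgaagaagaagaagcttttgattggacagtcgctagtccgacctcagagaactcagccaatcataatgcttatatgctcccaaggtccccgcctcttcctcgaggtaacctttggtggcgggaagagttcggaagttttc
GINS2: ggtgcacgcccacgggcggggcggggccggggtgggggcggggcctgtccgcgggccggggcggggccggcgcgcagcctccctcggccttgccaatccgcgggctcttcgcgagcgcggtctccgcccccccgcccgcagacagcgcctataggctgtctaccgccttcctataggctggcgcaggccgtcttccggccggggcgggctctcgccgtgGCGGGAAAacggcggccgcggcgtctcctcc
PCNA: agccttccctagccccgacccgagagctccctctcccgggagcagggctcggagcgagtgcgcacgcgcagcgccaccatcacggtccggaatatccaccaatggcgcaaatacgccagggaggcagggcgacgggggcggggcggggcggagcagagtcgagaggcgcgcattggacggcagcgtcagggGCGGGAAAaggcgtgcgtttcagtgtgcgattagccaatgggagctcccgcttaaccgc
LIG1: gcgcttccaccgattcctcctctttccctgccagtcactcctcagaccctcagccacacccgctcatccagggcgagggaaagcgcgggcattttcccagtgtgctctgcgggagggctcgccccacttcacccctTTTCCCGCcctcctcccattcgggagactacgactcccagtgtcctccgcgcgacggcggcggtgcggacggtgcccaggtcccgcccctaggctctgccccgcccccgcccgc
The match began 174 bases before the start in MCM3, 31 in GINS2, 59 in PCNA and 114 in LIG1. Searched on both strands, TTTCCCGC was held by 6 of the 22 origin genes (27.3%) and 4 of the 29 fork genes (13.8%) with a promoter in the table, and by 465 of 27305 genes (1.7%) in all. A second form, TTTGGCGC, was held by 2 of 22 (9.09%), 3 of 29 (10.3%) and 186 genes (0.681%) respectively. Not all holders rose past the threshold. For TTTCCCGC, 5 of 6 origin genes and 3 of 4 fork genes did, and for TTTGGCGC, 1 of 2 and 0 of 3. A match is a description of the letters and not a measured binding site.

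Nucleotide supply and the G1/S machinery moved the same way. Of 27 nucleotide synthesis genes, 7 rose and 0 fell (median 0.67). RRM2, the regulated subunit of ribonucleotide reductase, was at 17.4 and 10.4 CPM with R1881 and 86.9 and 119 CPM with namoline (log2 fold change 2.87, SE 0.22, adjusted p = 3.61e-07). SLC29A1, a nucleoside transporter, rose from 6.41 and 6.71 to 42.6 and 43.1 CPM (log2 fold change 2.71, SE 0.14, adjusted p = 1.55e-08), thymidylate synthase TYMS by 1.95 and CTP synthase CTPS1 by 1.29. TYMS overlaps TYMSOS and ENOSF1 in the annotation.

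Of 22 tested cyclins, E2F and RB family genes that govern entry into S phase (CCND2 was under the filter on low counts), 10 rose and 0 fell, with a median of 0.89. CCNE2, a cyclin that activates CDK2, rose from 2.49 and 1.96 to 20.1 and 20.6 CPM (log2 fold change 3.17, SE 0.22, adjusted p = 1.06e-07), although it overlaps INTS8 and NDUFAF6. E2F1, an activator of replication genes, rose from 10.1 and 8.48 to 45.6 and 65.9 CPM (2.58) and E2F2 from 1.89 and 1.46 to 13.8 and 18.5 CPM (3.25). E2F7 (1.48) and E2F8 (1.85), which repress E2F targets, rose as well, as did the phosphatase CDC25A (2.06) and CDK2 itself (1.03). CCND1, the cyclin that starts RB phosphorylation, went from 112 and 123 to 233 and 261 CPM (1.08). CDK2 and CCND1 each came under 2-fold in at least 1 alternative. Activators and repressors of the E2F family thus shared a direction.

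**Figure D3:**
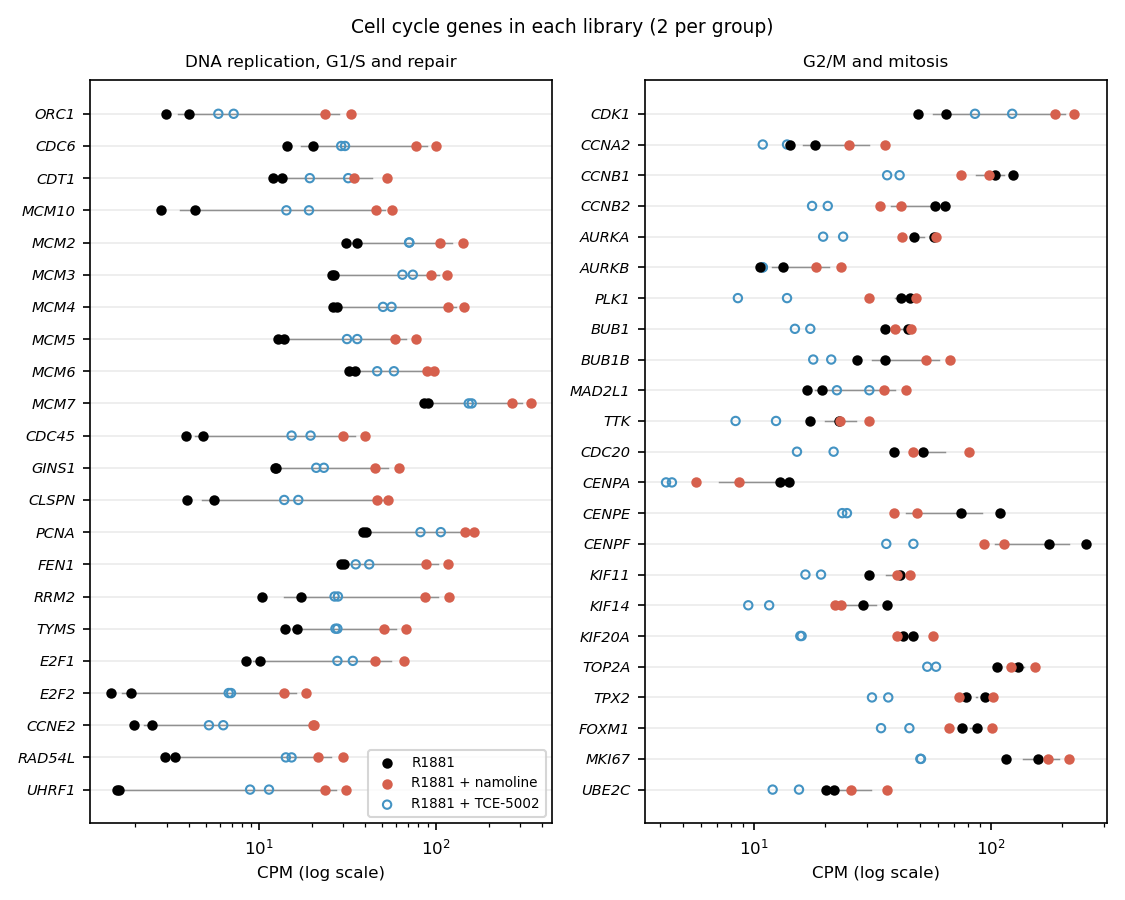
CPM (log axis) of replication, G1/S and repair genes (left) and of mitotic genes (right), 1 point per library for R1881, namoline and TCE-5002 (open circles), with a line from the R1881 mean to the namoline mean. For the replication and G1/S genes the namoline points lie to the right of the R1881 points (MCM10 from 4.33 and 2.79 to 46 and 56.9 CPM).

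The mitotic genes did not follow. Of 38 genes of G2 and mitosis, 2 rose and 2 fell, with a median of 0.10. CDK1, the kinase that drives mitotic entry, rose from 64.8 and 49.4 to 187 and 224 CPM (log2 fold change 1.84, SE 0.18, adjusted p = 3.39e-06), and the spindle checkpoint gene MAD2L1 from 19.4 and 16.7 to 35.3 and 43.7 CPM (log2 fold change 1.13, SE 0.17, adjusted p = 0.000161). CENPE, a kinetochore motor, was at 109 and 75.1 CPM with R1881 and 39 and 48.7 CPM with namoline (log2 fold change -1.07, SE 0.18, adjusted p = 0.000428). CENPF, another kinetochore protein, was at 252 and 176 against 93.8 and 114 CPM (log2 fold change -1.04, SE 0.22, adjusted p = 0.00192). In both the first R1881 library was well above the second, and 0 list members fell without that library, without the first namoline library, or with a GC offset. Leaving out the first R1881 library or the first namoline library raised the higher members to 4. MKI67, the common proliferation marker, stood at 137 ± 29.4 CPM with R1881 and 195 ± 27.4 CPM with namoline, as mean ± SD of n = 2, a difference that missed the threshold (log2 fold change 0.51, SE 0.19, adjusted p = 0.0559).

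Against TCE-5002 most of the same mitotic genes were higher with namoline. In the direct contrast of namoline with TCE-5002, 876 genes (4.95%) passed the threshold, 428 higher (2.42%) and 448 lower (2.53%). The count moved with single libraries: without the second namoline library it was 494, without the first TCE-5002 library 742 genes were lower, and without the second 644 were higher. The TCE-5002 replicates differed 2-fold or more in 56 of 9828 genes at 10 CPM or more, against 4 of 9801 for namoline. Of the 38 mitotic genes, 25 were higher with namoline and 0 lower, with a median difference of 1.18. MKI67 was at 50.7 and 50.4 CPM with TCE-5002 (difference 1.95, adjusted p = 3.99e-05), and PLK1, a mitotic kinase, at 8.56 and 13.8 CPM against 30.7 and 48.4 CPM with namoline (1.82, adjusted p = 0.000119). Each inhibitor set against R1881, with the R1881 libraries shared, gave a list median of 0.10 for namoline and -1.17 for TCE-5002. Origin factors were also higher with namoline than with TCE-5002, in 9 of 28 genes (median difference 0.79).

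Homologous recombination and Fanconi genes, which repair broken and crosslinked DNA and are made in S phase, rose in 15 of 29 cases and fell in 0 (median 1.04). RAD54L, a motor protein of strand exchange, was at 2.95 and 3.36 CPM with R1881 and 21.6 and 29.8 CPM with namoline (log2 fold change 3.03, SE 0.20, adjusted p = 8.95e-08), though it overlaps LRRC41. EXO1, the nuclease that resects ends, rose from 5.49 and 4.11 to 23.3 and 27.9 CPM (2.40) and the helicase BRIP1 by 2.13. BRCA2, a repair mediator, went from 44.7 and 33 to 72.4 and 89.6 CPM (1.06), and came under 2-fold in at least 1 alternative.

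Maintenance of DNA methylation showed 3 of 10 genes higher and 0 lower, with a median of -0.10, so the list as a whole was divided. Beside UHRF1, the chromatin remodeller HELLS rose from 8.11 and 7.79 to 27 and 30.8 CPM (log2 fold change 1.86, SE 0.19, adjusted p = 4.58e-06). DNMT1, the maintenance methyltransferase, was at 89.4 and 93.1 against 170 and 211 CPM (log2 fold change 1.06, SE 0.13, adjusted p = 2.49e-05) and came under 2-fold with a GC offset. The de novo enzymes DNMT3A (-0.39) and DNMT3B (-0.14) did not pass.

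Of 8 tested inhibitors of cyclin-dependent kinases, 1 rose and 1 fell, with a median of -0.57, and by adjusted p alone 2 were higher and 4 lower. CDKN1A, which encodes p21 and is the best known p53 target, was at 57.2 and 72.4 CPM with R1881 and 234 and 176 CPM with namoline (log2 fold change 1.66, SE 0.15, adjusted p = 1.58e-06). CDKN2B fell from 2.67 and 2.03 to 0.634 and 0.347 CPM (log2 fold change -2.26, SE 0.41, adjusted p = 0.000757), a low level in both groups. CDKN1B, which encodes p27, was at 106 and 107 against 54.1 and 54.5 CPM (-0.97), short of 2-fold, and CDKN1C (-0.93) passed the threshold under 4 of the alternatives. Among 29 tested p53 targets (EDA2R was under the filter), 7 rose and 1 fell, with a median of 0.46. DDB2 (1.06) and BTG2 (1.06) rose slightly over 2-fold, whereas GADD45A, a DNA damage gene also driven by stress, fell from 54.7 and 50.5 to 23.7 and 15 CPM (log2 fold change -1.44, SE 0.17, adjusted p = 1.81e-05). Of the members that rose, DDB2, BTG2, TP53I3 (1.11), PHLDA3 (1.13) and PLK2 (1.11) each came under 2-fold in at least 1 alternative. Only CDKN1A and FAS (1.37) stayed past the threshold in all. With both inhibitors, measured against the same R1881 libraries, the list median was 1.88.

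No tested gene of the targeted complex passed the 2-fold threshold. KDM1A (chr1:23019448-23083689) was at 74 and 72.3 CPM with R1881 and 112 and 124 CPM with namoline (log2 fold change 0.69, SE 0.12, adjusted p = 0.000392), higher by adjusted p but under 2-fold. Of 19 tested members of the KDM1A and CoREST complexes (GFI1B and INSM1 were under the filter), 0 rose and 0 fell, with a median of 0.00. The shares over all genes were 5.17% higher and 6.88% lower. The most abundant were ZNF217 at 304 and 303 against 335 and 298 CPM (log2 fold change 0.06, SE 0.12, adjusted p = 0.732) and GSE1 at 338 and 329 against 250 and 258 CPM (log2 fold change -0.39, SE 0.11, adjusted p = 0.0136). By adjusted p alone, 2 members were higher and 5 lower (edgeR), against 18.7% higher and 16.3% lower of all genes tested. At an unadjusted p under 0.05 there were 10, a limit that at least 35% of all genes passed, and DESeq2 also gave 0 calls.

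The other demethylases gave 0 calls in either direction among 17 tested genes (median -0.08), with 3 higher and 7 lower by adjusted p alone (edgeR). At an unadjusted p under 0.05 there were 10, against at least 35% of all genes tested (edgeR), and DESeq2 gave 1 call, lower. KDM7A, for which TCE-5002 is described as selective, was at 99.7 and 94.9 CPM with R1881 and 62.1 and 54.5 CPM with namoline (log2 fold change -0.74, SE 0.12, adjusted p = 0.000381). Its relative PHF8 was at 165 and 169 against 152 and 174 CPM (log2 fold change -0.04, SE 0.11, adjusted p = 0.819). KDM2A, a demethylase of another histone lysine, stood at 113 ± 4.96 CPM with R1881 and 154 ± 3 CPM with namoline, as mean ± SD of n = 2 (log2 fold change 0.45, SE 0.11, adjusted p = 0.00506). JMJD1C lay nearest the limit, at 232 and 215 against 127 and 97.7 CPM (log2 fold change -0.99, SE 0.13, adjusted p = 6.27e-05), and passed it under 6 of 11 alternatives.

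Of 27 androgen-induced genes, 4 rose and 1 fell, with a median of 0.48 and 23 positive values. By adjusted p alone 19 were higher and 2 lower, against 18.7% higher and 16.3% lower of all genes tested. KLK3, which encodes prostate-specific antigen, was at 203 and 222 CPM with R1881 and 163 and 209 CPM with namoline (log2 fold change -0.19, SE 0.15, adjusted p = 0.343), and the groups overlapped. TMPRSS2, a membrane-bound serine protease of luminal cells, was at 371 and 390 against 726 and 824 CPM (log2 fold change 1.03, SE 0.12, adjusted p = 1.76e-05), close enough to 2-fold that its value ran from 0.91 to 1.10 over the alternatives and lost the call under some of them. PTGER4, a prostaglandin receptor, rose by 1.38, the elongation factor gene ELL2 by 1.12 and the small GTPase gene RHOU by 1.11, although RHOU lost its call under at least 1 alternative. FOXA1, the pioneer factor of luminal cells, stood at 369 and 392 against 368 and 391 CPM (log2 fold change 0.00, SE 0.11, adjusted p = 0.987). Without the second namoline library 2 members rose, and 0 fell without either R1881 library or the first namoline library.

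Set against TCE-5002, KLK3 was lower with namoline (395 and 476 CPM with TCE-5002, difference -1.23, adjusted p = 0.000107), as was TMPRSS2 (1261 and 1319 CPM, -0.74, adjusted p = 0.000875), the latter under 2-fold. Steroid enzymes gave 3 higher and 2 lower of 14 tested genes out of 20 (median 0.60). CYP11A1, which makes pregnenolone from cholesterol, was at 2.86 and 2.09 CPM with R1881 and 9.62 and 15 CPM with namoline (log2 fold change 2.30, SE 0.26, adjusted p = 1.12e-05). UGT2B17, which conjugates androgens, rose from 6.73 and 5.82 to 14.8 and 14 CPM (log2 fold change 1.19, SE 0.20, adjusted p = 0.000378), but reads shared with its near copy UGT2B15 could affect the value.

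The integrated stress response was the group that fell most. In this pathway, kinases that sense amino acid shortage, misfolded protein or other stress phosphorylate the translation factor eIF2alpha, which raises translation of ATF4, and ATF4 with C/EBP partners switches on genes for amino acid supply, redox balance and, when prolonged, cell death. Of 24 genes, 18 fell and 0 rose, against a background of 6.88% lower, with a median of -1.86, and 22 were lower by adjusted p alone. DDIT3 (chr12:57516588-57520517), which encodes the death-promoting factor CHOP, was at 380 and 354 CPM with R1881 and 19.9 and 16.7 CPM with namoline (log2 fold change -4.33, SE 0.13, adjusted p = 7.63e-11). CHAC1, which degrades glutathione, was at 45.8 and 52.7 against 2.07 and 1.56 CPM (log2 fold change -4.75, SE 0.19, adjusted p = 2.19e-09). DDIT3 overlaps MARS1 in the annotation. In both genes the replicates agreed closely and the groups were more than 10-fold apart.

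ATF4 itself was at 711 and 734 CPM with R1881 and 325 and 291 CPM with namoline (log2 fold change -1.23, SE 0.11, adjusted p = 2.04e-06). TRIB3, a pseudokinase that feeds back on ATF4, fell from 357 and 385 to 72.6 and 72.2 CPM (-2.36), and ASNS, asparagine synthetase, from 1034 and 983 to 293 and 244 CPM (-1.91). CTH, which makes cysteine, fell by 2.82 and SESN2, a leucine sensor, by 2.54 on the log2 scale. The partner factors CEBPB (-1.75) and CEBPG (-2.0), the repressors ATF3 (-1.68) and JDP2 (-1.76), and PPP1R15A (-2.27), which ends the response by restoring eIF2alpha, fell as well. Inducers and terminators of the response thus shared a direction.

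Of the 24 genes, 6 did not pass: ATF5 (-0.96), VLDLR (-0.83), GDF15 (-0.62), GPT2 (-0.50), PYCR1 (-0.14) and ALDH18A1 (0.16). NIBAN1, a stress gene outside the list that was picked for its large loss of reads, went from 628 and 615 to 98.2 and 80.6 CPM (-2.80). From 17 to 19 list members fell under the alternatives tried, the limit of 10 CPM left aside.

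Part of the same list was lower with namoline than with TCE-5002. DDIT3 was at 92.2 and 95.1 CPM with TCE-5002 (namoline minus TCE-5002 -2.36, adjusted p = 6.71e-08) and CHAC1 at 10.9 and 12.2 CPM (-2.66, adjusted p = 2.96e-06). Of 24 genes, 10 were lower with namoline than with TCE-5002 and 0 higher, against 2.53% lower in the background, with a median difference of -0.96. GDF15, a secreted stress cytokine, was at 707 and 1225 CPM with TCE-5002 against 189 and 199 CPM with namoline (-2.31, adjusted p = 1.15e-05). Measured against the shared R1881 libraries, the list median was -1.86 for namoline, -1.10 for TCE-5002 and -0.65 for both together.

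ATF4 acts with a C/EBP partner through the composite C/EBP and ATF element, TGATGNAA. A pair of promoters from this list are shown, picked for the largest falls among members past the threshold that hold a letter match to it. They cover 250 bases before the RefSeq start (GRCh38.p14) on the strand of the gene, CHAC1 at chr15:40953221-40953470, plus strand and CEBPG at chr19:33373863-33374112, plus strand, with the match or its reverse complement in capitals.
CHAC1: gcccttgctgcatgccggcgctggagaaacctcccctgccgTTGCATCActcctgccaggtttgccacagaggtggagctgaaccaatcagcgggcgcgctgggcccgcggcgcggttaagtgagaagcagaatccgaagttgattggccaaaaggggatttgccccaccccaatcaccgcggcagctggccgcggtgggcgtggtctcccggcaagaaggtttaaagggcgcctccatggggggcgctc
CEBPG: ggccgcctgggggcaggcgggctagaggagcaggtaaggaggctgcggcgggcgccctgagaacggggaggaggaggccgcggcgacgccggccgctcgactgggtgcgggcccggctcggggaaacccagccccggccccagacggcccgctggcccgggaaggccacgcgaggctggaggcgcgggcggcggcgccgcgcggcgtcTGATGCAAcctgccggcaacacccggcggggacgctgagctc
The match began 209 bases before the start in CHAC1 and 42 in CEBPG. On both strands, 5 of the 20 list members with a promoter in the table held it (25%), namely CHAC1, ASNS, CEBPG, ATF3 and JDP2, against 1061 of 27305 genes (3.89%). As with the E2F letters, a match is a description and not a measured site.

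Amino acid supply followed the stress genes in part. PSAT1, an enzyme of serine synthesis, fell from 766 and 786 to 314 and 250 CPM (log2 fold change -1.46, SE 0.13, adjusted p = 1.40e-06), and MTHFD2, the mitochondrial folate enzyme, from 480 and 452 to 164 and 149 CPM (log2 fold change -1.57, SE 0.12, adjusted p = 3.61e-07). MTHFD1, its cytosolic relative, rose from 88.2 and 84.1 to 199 and 226 CPM (log2 fold change 1.30, SE 0.12, adjusted p = 2.12e-06). The list of 20 serine and one-carbon genes held 2 higher and 3 lower genes (median -0.41). The cytosolic and mitochondrial folate enzymes therefore moved apart.

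Among 22 tested amino acid transporters, 4 rose and 7 fell (median -0.09). SLC6A9, a glycine transporter, fell from 117 and 131 to 19.1 and 17.6 CPM (log2 fold change -2.75, SE 0.18, adjusted p = 8.94e-08). SLC1A4, which carries serine and alanine, fell from 31.4 and 32.9 to 6.74 and 7.12 CPM (-2.21), and SLC7A11, the cystine carrier, from 612 and 568 to 167 and 118 CPM (-2.05). SLC3A2, the partner chain of SLC7A11, fell too (-1.22). In the other direction, the taurine transporter SLC6A6 rose from 2.81 and 2.28 to 13.3 and 17.2 CPM (2.56) and the lysosomal carrier SLC36A1 from 23.8 and 26.1 to 98.2 and 122 CPM (2.14).

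Charging enzymes of the cytosol were divided, with 2 of 21 higher, 6 lower and a median of -0.51. WARS1 was at 444 ± 2.05 CPM with R1881 and 119 ± 3.8 CPM with namoline, as mean ± SD of n = 2 (log2 fold change -1.90, SE 0.11, adjusted p = 2.86e-08). CARS1 fell from 195 and 196 to 73.9 and 72.6 CPM (log2 fold change -1.41, SE 0.11, adjusted p = 3.08e-07), and GARS1 (-1.41), YARS1 (-1.30), SARS1 (-1.20) and AARS1 (-1.18) fell as well. WARS1 overlaps WDR25. FARSA (1.12) and VARS1 (1.07) rose, but 0 rose with a GC offset. None of the 17 mitochondrial enzymes had a negative value, the median was 0.38 and only MARS2 rose past the threshold (1.15).

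Endoplasmic reticulum genes leaned downwards, with 7 of 26 lower, 1 higher and a median of -0.33. HSPA5, the main chaperone of the compartment, was at 2270 and 2266 CPM with R1881 and 806 and 789 CPM with namoline (log2 fold change -1.51, SE 0.12, adjusted p = 3.39e-07), and its exchange factor HYOU1 at 743 and 748 against 277 and 312 CPM (log2 fold change -1.34, SE 0.11, adjusted p = 9.99e-07). ERN1, which encodes the sensor IRE1, fell from 212 and 221 to 63.7 and 68.9 CPM (-1.71), HERPUD1, a factor of protein disposal, by 1.64 and the sensor ATF6 by 1.06 on the log2 scale. ATF6 came under 2-fold with a GC offset. The chaperone HSP90B1 stood at 1454 and 1359 against 979 and 927 CPM (-0.56), under 2-fold. DERL3, at under 5 CPM in each library, was the single member that rose (1.28).

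Lipid synthesis leaned upwards. Of 19 tested fatty acid genes, 7 rose and 0 fell, with a median of 0.93. FASN, the fatty acid synthase, was at 1121 and 1435 CPM with R1881 and 5296 and 7591 CPM with namoline (log2 fold change 2.33, SE 0.20, adjusted p = 1.00e-06), the largest gain in CPM of any nuclear gene. SCD, which puts the first double bond into saturated chains, rose from 861 and 950 to 2386 and 2697 CPM (log2 fold change 1.49, SE 0.13, adjusted p = 1.56e-06). The desaturases FADS2, at 387 and 466 against 1493 and 2021 CPM (2.04), and FADS1, at 175 and 175 against 498 and 595 CPM (1.64), rose too, as did the elongase ELOVL5 (1.45). FADS1 overlaps FADS2, and FADS2 overlaps FEN1, in the annotation. Namoline replicate 2 was the higher of the pair for FASN, and without replicate 1 the list count was 11.

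Cholesterol synthesis and uptake rose in 11 of 25 genes and fell in 0 (median 0.92), and 22 were higher by adjusted p alone. INSIG1, which holds the SREBP pathway in check when sterols are ample, was at 168 and 187 CPM with R1881 and 538 and 629 CPM with namoline (log2 fold change 1.72, SE 0.13, adjusted p = 4.06e-07). The sterol enzymes EBP (31 and 30 against 88.6 and 94.7 CPM, 1.59), MSMO1 (1.53) and LSS (1.42) rose. The sterol element TCACCCCAC was found on either strand in the promoter of 1 of 18 list genes (SREBF2) and of 123 genes in all (0.45%).

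Fewer lipid genes passed the threshold between namoline and TCE-5002. FADS1 was at 183 and 173 CPM with TCE-5002 (namoline minus TCE-5002 1.62, adjusted p = 1.78e-06). FASN was at 3388 and 4862 CPM with TCE-5002 (0.64, adjusted p = 0.0311) and FADS2 at 1177 and 1371 CPM (0.46, adjusted p = 0.0412), both differences under 2-fold. Of 19 fatty acid genes, 3 were higher with namoline than with TCE-5002, against 2.42% of all genes, with a median difference of 0.46. By adjusted p alone 10 were higher, against 8.91% of all genes. The list median of TCE-5002 against the shared R1881 libraries was 0.79. Of the 25 cholesterol genes, 5 were higher with namoline and 0 lower, with a median difference of 0.59. By adjusted p alone 20 were higher, against the same 8.91%.

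**Figure D4:**
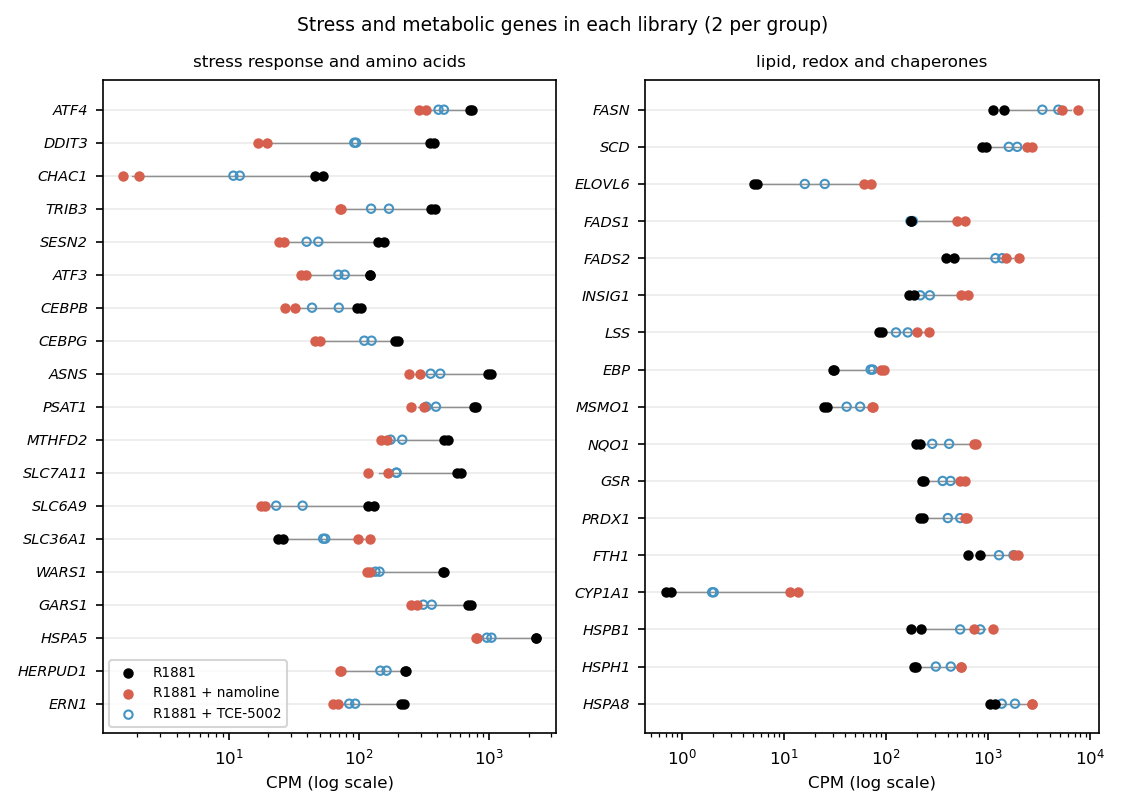
CPM (log axis) of stress response and amino acid genes (left) and of lipid, redox and chaperone genes (right), 1 point per library for R1881, namoline and TCE-5002 (open circles), with a line from the R1881 mean to the namoline mean. In the left panel all genes but SLC36A1 are lower with namoline (DDIT3 from 380 and 354 to 19.9 and 16.7 CPM) and in the right panel all are higher (FASN from 1121 and 1435 to 5296 and 7591 CPM).

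Antioxidant genes under the factor NRF2 rose in 13 of 28 tested cases and fell in 1, with a median of 1.01. NQO1, a quinone reductase, was at 195 and 213 CPM with R1881 and 752 and 723 CPM with namoline (log2 fold change 1.86, SE 0.15, adjusted p = 5.92e-07). OSGIN1 rose from 5.12 and 7.22 to 15.9 and 21.9 CPM (log2 fold change 1.63, SE 0.20, adjusted p = 2.09e-05). GSR (1.29), which regenerates glutathione, PRDX1 (1.44), a peroxidase, and FTH1 (1.33), the ferritin heavy chain, rose as well. SLC7A11, which is also on the amino acid transporter list, was the single member that fell. By adjusted p alone, 20 members were higher and 3 lower. Beside SLC7A11, the lower ones were NFE2L2, which encodes NRF2 itself (-0.68), and HMOX1 (-0.70), both under 2-fold. AKR1B10 was at 0 and 0.0633 CPM with R1881 and 0.922 and 1.33 CPM with namoline, too low for a fold change to be given. In the contrast with TCE-5002, 8 members were higher with namoline and 0 lower, against 2.42% and 2.53% of all genes.

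The aryl hydrocarbon receptor binds planar aromatic compounds and switches on genes that oxidise them. Of its 9 list genes, 4 rose and 1 fell (median 0.63). Beside CYP1A1 and NQO1, which stands on both lists, CYP1A2 was at 0 and 0.19 CPM with R1881 and 1.27 and 0.984 CPM with namoline, and ALDH3A1 at 0.184 and 0.0633 against 1.27 and 1.22 CPM, both very low. ALDH3A1 lost its call without the second R1881 library or without the second namoline library. CYP1B1, the third cytochrome of the set, did not pass (log2 fold change -0.31, SE 0.38, adjusted p = 0.572). The receptor gene itself was at 3.73 and 4.18 against 2.07 and 1.45 CPM (log2 fold change -1.16, SE 0.30, adjusted p = 0.00764), and without the second namoline library it no longer passed, so that 0 list members fell. CYP1A1 was at 1.98 and 2.05 CPM with TCE-5002 (namoline minus TCE-5002 2.65, adjusted p = 6.45e-06). The letters TTGCGTG were found in 0 of 7 list promoters and in 320 genes in all (1.17%), which says only that they are absent from these 250 bases.

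Of 18 tested heat shock chaperones of the cytosol and mitochondria, 7 rose and 0 fell (median 0.80), and the 7 were cytosolic. The mitochondrial members did not pass, with HSPA9, the HSP70 of that compartment, at 1130 and 1069 CPM with R1881 and 704 and 639 CPM with namoline (log2 fold change -0.71, SE 0.13, adjusted p = 0.000689), HSPD1 at a log2 fold change of -0.31 and HSPE1 at 0.75. HSPB1, a small chaperone, was at 175 and 221 CPM with R1881 and 720 and 1126 CPM with namoline (log2 fold change 2.22, SE 0.22, adjusted p = 3.80e-06). HSPA8, the constitutive member of the HSP70 family, was at 1033 and 1165 against 2709 and 2668 CPM (log2 fold change 1.29, SE 0.14, adjusted p = 8.73e-06), and HSPH1 rose by 1.5. HSPA1B rose from 32 and 37.1 to 90.9 and 127 CPM (1.66), but it has a near-identical copy, HSPA1A, so its counts are uncertain. The cytosolic HSP90 genes HSP90AA1 (1.03) and HSP90AB1 (1.02) passed close to 2-fold.

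In energy metabolism most shifts stayed under 2-fold. Glycolysis gave 4 of 22 genes higher and 0 lower (median 0.70), with 18 higher by adjusted p alone. ALDOC, an aldolase, rose from 33.9 and 38.8 to 92.3 and 98.1 CPM (log2 fold change 1.39, SE 0.13, adjusted p = 2.14e-06). PKM, the muscle type pyruvate kinase gene, was at 464 and 464 against 851 and 1027 CPM (1.02), and the lactate exporter SLC16A3 at 61.1 and 76.5 against 137 and 194 CPM (1.27). PKM, SLC16A3 and ENO2 (1.12) each lost the call under at least 1 alternative, and without the second namoline library 1 member rose.

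Hypoxia genes did not share the direction of glycolysis, with 1 of 17 higher, 3 lower and a median of -0.22. VEGFA, the angiogenic factor, fell from 436 and 461 to 140 and 168 CPM (log2 fold change -1.54, SE 0.14, adjusted p = 2.12e-06), and NDUFA4L2 fell from 26 and 34.4 to 5.65 and 9.78 CPM (-1.97). P4HA2, a collagen hydroxylase, fell by 1.16 on the log2 scale. CA12, a carbonic anhydrase, rose from 3 and 2.91 to 13.1 and 14.2 CPM (2.21).

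The citric acid cycle had 2 of 24 genes higher and 0 lower (median 0.50). By adjusted p alone 19 were higher and 1 lower, against 18.7% and 16.3% of all genes. DLAT, of the pyruvate dehydrogenase complex, stood at 115 ± 1.72 CPM with R1881 and 245 ± 11.5 CPM with namoline, as mean ± SD of n = 2, a rise of 1.09, and OGDH at 265 and 297 against 526 and 612 CPM (1.02), the latter losing its call under at least 1 alternative. Nuclear genes of the respiratory chain gave 2 higher and 0 lower of 71 (median 0.23), and 20 higher and 1 lower by adjusted p alone. The 13 protein genes of the mitochondrial genome gave 0 calls, with a median of 0.57 and 0 calls by DESeq2 too. By adjusted p alone 9 were higher (edgeR), against 18.7% of all genes. At an unadjusted p under 0.05 there were 10, against at least 35% of all genes. MT-CO1, a subunit of cytochrome oxidase, was at 8640 and 10507 CPM with R1881 and 14514 and 17114 CPM with namoline (log2 fold change 0.72, SE 0.14, adjusted p = 0.00134), and MT-ND4 at 5619 and 7058 against 8997 and 10595 CPM (log2 fold change 0.63, SE 0.14, adjusted p = 0.00356).

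The nuclear and mitochondrial parts of the respiratory chain parted in the contrast with TCE-5002. The 71 nuclear genes had a median difference of -0.43, with 41 lower by adjusted p alone against 9.25% in the background. For the 13 mitochondrial genes the median difference was 0.75, with 12 higher by adjusted p alone against 8.91%.

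**Figure D5:**
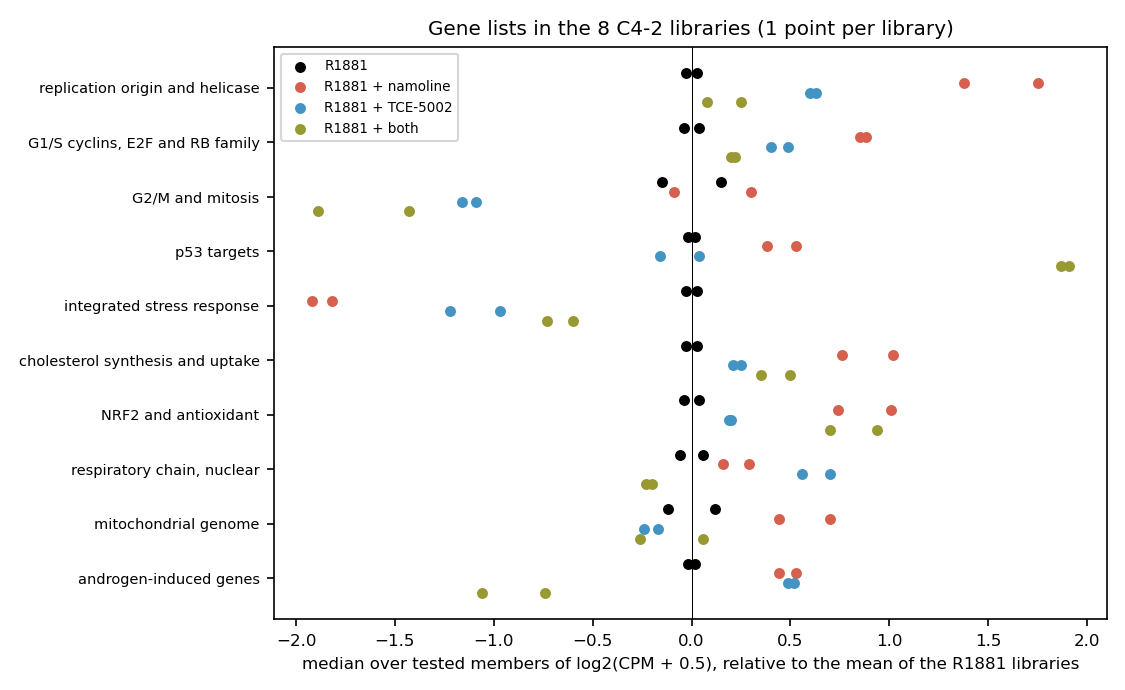
Median over the tested members of each of 10 gene lists of log2(CPM + 0.5), relative to the mean of the R1881 libraries (horizontal axis), 1 point per C4-2 library coloured by group. Among these lists the namoline points reach furthest to the right for replication origin factors (1.38 and 1.75) and furthest to the left for the integrated stress response (-1.82 and -1.92), while for mitotic genes they stay near the R1881 points (-0.09 and 0.30).

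Ribosome biogenesis rose in 6 of 27 genes and fell in 0 (median 0.58), with 23 higher by adjusted p alone. NOP56, a core protein of small nucleolar particles, was at 125 and 120 CPM with R1881 and 260 and 271 CPM with namoline (log2 fold change 1.12, SE 0.11, adjusted p = 3.20e-06), and NOP16 rose from 24.9 and 25.5 to 58.7 and 56.1 CPM (1.19). The 6 that rose lay near 2-fold, and the count was 3 with a GC offset or without the second namoline library. Cytosolic ribosomal proteins gave 0 calls among 52 genes, with a median of 0.24 and 12 higher and 0 lower by adjusted p alone (20 at an unadjusted p under 0.05), but many have processed copies that can take reads. Splicing factors also gave 0 of 30, with a median of 0.07 and 7 higher and 4 lower by adjusted p alone (15 at an unadjusted p under 0.05). DESeq2 also gave 0 calls in both lists. Of all genes tested, at least 35% had an unadjusted p under 0.05 (edgeR).

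TXNIP and ID1 separated the inhibitors most clearly among those named. TXNIP, a glucose-responsive brake on thioredoxin and glucose uptake, was at 766 and 713 CPM with R1881, 319 and 277 CPM with namoline and 4.25 and 4.26 CPM with TCE-5002. It fell with namoline (log2 fold change -1.31, SE 0.11, adjusted p = 9.21e-07) yet was higher than with TCE-5002 (6.13, adjusted p = 2.97e-12). ID1, a target of BMP signalling that blocks differentiation factors, was at 8.21 and 9.5 CPM with R1881, 25 and 24.1 CPM with namoline and 0.658 and 0.842 CPM with TCE-5002. It rose with namoline (log2 fold change 1.48, SE 0.16, adjusted p = 9.06e-06), so the direct difference was larger (5.02, adjusted p = 7.74e-09).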

How the data were processed

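RNA was sequenced from C4-2 cells given R1881 alone, with namoline, with TCE-5002 or with both inhibitors (2 libraries each). The study's methods call the libraries biological replicates. The p-values measure the spread between these libraries. Per the study's methods and the file headers, the authors captured polyadenylated RNA, sequenced paired ends, filtered reads by quality, trimmed with TrimGalore, aligned to GRCh38 with STAR, and counted with featureCounts 1.5.0-p1 on Ensembl release 83. The deposited values are raw counts of fragments per gene for 60675 genes, without strand and with fragments matching several genes left out. Genes with near-identical copies can therefore be undercounted. A label field describes siRNA work that matches no group, so groups were taken from titles.

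Symbols were found for 56558 genes. The 8 C4-2 libraries (14791602 to 20295282 counts) were fitted together with edgeR 4.0.16 (limma 3.58.1, R 4.3.3): filterByExpr, TMM scaling and the quasi-likelihood F test, without a replicate block, with Benjamini-Hochberg adjustment over the 17702 genes tested. Called genes had an adjusted p under 0.05 and changed at least 2-fold. The SE was obtained as the size of the log2 fold change divided by the root of F. CPM values were computed here from the deposited counts. Counting error of low genes limits their precision.

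Named genes were 7 genes whatever their values, the 10 protein-coding genes that rose most and the 10 that fell most at 10 CPM or more in the higher group and groups that did not overlap, up to 4 such members of each list, and up to 2 of the most abundant members of a list with none. Other list members are named as counted. The comparison and the 41 lists were chosen with earlier results of these data known. Alternatives were RLE size factors, no filter, a mean of at least 10 CPM, DESeq2 1.42.0, a replicate block, GC offsets, both together, only the 4 libraries compared, and leaving out each library. Promoters were read from a RefSeq table of GRCh38.p14. The steps were tested on simulated counts. A few genes that this rule would name are counted in their lists but not reported here.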

Additional observations from a re-analysis of the deposited data

How the results depend on the processing

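Direction held for the named genes past the threshold and the larger list medians, whereas many counts of list members past the threshold moved. Some named genes near no change, such as PHF8 (-0.16 to 0.04) and FOXA1 (-0.06 to 0.05), had values on both sides of no change. Most named genes were chosen for large changes in these same data, so their staying past the threshold is partly fixed by that choice. Of all 2134 genes called, DESeq2 still called 1777 (83.3%). Of 113 named genes past the threshold, 96 stayed past it under all 11 alternatives run for single genes (the limit of 10 CPM was not) and 0 changed sign, and all 18 list medians of at least 0.5 in size kept their sign. The other 17 genes (among them TMPRSS2, MAD2L1, CENPE, CENPF, PHLDA3, PLK2, DNMT1 and RHOU) lay near 2-fold, and 18 of the 51 list counts above 0 stayed within 1.5 times under every alternative. For namoline against R1881, the 2134 calls became 702 (371 higher, 331 lower) with a mean of at least 10 CPM, where fewer genes were tested, and 6193 (3316 higher, 2877 lower) by adjusted p alone. They ran from 1486 to 1970 when 1 library was left out, were 1788 with DESeq2, and 2177 with GC offsets, where 1901 of the 2134 were still called. For namoline against TCE-5002 (876 calls), leaving out 1 library gave 494 to 1211 calls, 240 to 644 higher and 254 to 742 lower, and 38.7% to 61.3% of calls higher. The cause was not tested. The correlation of replicate differences was 0.054 between R1881 and namoline, 0.126 between R1881 and TCE-5002 and 0.143 between TCE-5002 and namoline (0.112 with GC content removed). With 2 libraries a group, the replicate numbers were not taken to pair the samples. With a replicate block 2181 genes were called, 943 against TCE-5002, and all 113 named genes kept their call. Fold changes of genes under 1 CPM rest on few counts.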

Other observations

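Genes for lincRNA and antisense transcripts fell more often than they rose. Of 13270 protein-coding genes tested, 805 (6.07%) rose and 690 (5.2%) fell with namoline, whereas of 951 lincRNA genes 26 (2.73%) rose and 146 (15.4%) fell, with a median log2 fold change of -0.42. Antisense genes gave 30 (2.22%) higher and 160 (11.8%) lower of 1353, with a median of -0.36. Transcribed unprocessed pseudogenes gave 10 higher and 42 lower (14.3%) of 293, whereas snoRNA genes gave 2 higher (4.88%) and 1 lower (2.44%) of 41, with a median of 0.28. Counting was not stranded, so reads of an antisense gene and its partner cannot be told apart, and the part of GC content in these differences was not tested.

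Several further gene groups held few members past the threshold. Interferon and antigen presentation genes rose in 3 of 27 tested cases (30 listed) and fell in 0 (median 0.21), led by OAS3, a sensor of double-stranded RNA, at 6.18 and 7.34 CPM with R1881 and 24.4 and 28.6 CPM with namoline (log2 fold change 1.98, SE 0.21, adjusted p = 6.84e-06). Feedback genes of TGF-beta and BMP signalling gave 2 higher and 1 lower of 16 tested (20 listed, median 0.18), with the inhibitory SMAD6 rising from 9.77 and 12.5 to 28.9 and 39 CPM (log2 fold change 1.61, SE 0.20, adjusted p = 3.48e-05). Genes repressed by REST or tied to a neuroendocrine state gave 3 higher and 0 lower of 10 tested (median 0.34), while 14 of the 24 listed, CHGA, SNAP25, SYN1 and SCG2 included, were under the filter on low counts. Among the 3 was GRIN1, a glutamate receptor subunit, from 5.72 and 6.77 to 15.2 and 20.9 CPM (log2 fold change 1.54, SE 0.25, adjusted p = 0.000341). The summed level of separate neuroendocrine markers was 3.32 and 3.29 CPM with R1881 and 2.71 and 1.5 CPM with namoline.

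Cytoskeletal genes under SRF and YAP gave 3 higher and 2 lower of 19 tested (23 listed, median 0.18), and 1 higher without the first R1881 library. TAGLN2 rose from 57.8 and 53.9 to 139 and 152 CPM (log2 fold change 1.38, SE 0.11, adjusted p = 5.14e-07), and AJUBA, a scaffold of cell junctions, fell from 32.1 and 32.9 to 12.2 and 13.2 CPM (log2 fold change -1.36, SE 0.14, adjusted p = 6.21e-06). FLNA (1.03) and TAGLN (-1.01) passed near 2-fold and lost the call under at least 1 alternative. ACTA2, the third that rose, was at 0.184 and 0.38 CPM with R1881 and 1.33 and 0.579 CPM with namoline, a low level, and lost the call when 1 library was left out.

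MAP1LC3B, the marker of autophagosomes, fell from 270 and 268 to 78.9 and 70.6 CPM (log2 fold change -1.85, SE 0.12, adjusted p = 7.30e-08) and was the single call among 25 autophagy and lysosome genes (median 0.00). SAT1, which breaks down polyamines, fell from 245 and 234 to 114 and 113 CPM (log2 fold change -1.08, SE 0.13, adjusted p = 2.34e-05), 1 of 2 falling genes of 15 in polyamine and methionine salvage (median -0.08). TXNIP was the single call among 8 genes of the MondoA pathway (median 0.39). Of 15 tested genes of the BCL2 family (16 listed, median 0.13), the single call was HRK, at 0.599 and 0.633 CPM with R1881 and no count with namoline. Immediate-early and MAPK feedback genes gave 1 higher and 1 lower of 21 tested (25 listed, median 0.22), both under 3 CPM.

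In a principal component analysis of the 8 C4-2 libraries, namoline and TCE-5002 lay close together on the first component (51.1% of variance, -38.74 and -44.85 against -37.68 and -39.03), with R1881 alone at -9.98 and -10.46 and the libraries with both inhibitors apart from the rest at 86.62 and 94.13, and on the second (22.7%). They were separated on the third (12.1%), at -32.09 and -38.64 for namoline and 37.11 and 39.3 for TCE-5002.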
